A study of Homo sapiens with 2 samples.

Results

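The transcripts described are those of 32 genes of interstrand crosslink repair, homologous recombination and the kinases that signal DNA damage, measured in NCI-H838 cells that received the long noncoding RNA LINC00472 or an empty plasmid. The members were taken by symbol from the deposited table of 27685 genes. Of the 32 symbols, 31 were listed as such, and MRE11A was found through its gene ID as MRE11. All 32 reached the expression minimum, a mean of 1 CPM (counts relative to library size), which 14012 of the 27685 genes reached.

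NCI-H838 is an established line of human lung adenocarcinoma, a form of non-small cell lung cancer. One culture was transfected with pCDH-LINC00472, which carries the full-length noncoding RNA, and the other with the pCDH vector without an insert, both by lipid-mediated transfection. Total RNA was taken 48 hours later. With 1 library per group, differences could not be set against the spread between replicates. P-values are therefore absent, and the intervals cover counting error alone. Transfection was transient, so a culture can hold transfected and untransfected cells, and in such bulk RNA fewer cells of one state cannot be told apart from less RNA per cell.

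Crosslinks between the strands of DNA block replication forks. A nuclear ligase assembled from Fanconi proteins, the core complex, marks the FANCD2-FANCI pair with ubiquitin, and nucleases then unhook the lesion. The break that remains is resected by MRE11, RAD50, NBN and RBBP8 (CtIP) and is copied from the sister chromatid by homologous recombination, which needs BRCA1, PALB2, BRCA2 and complexes built from RAD51B, RAD51C, RAD51D, XRCC2 and XRCC3. ATM and ATR are the kinases that sense breaks and stalled forks. Inherited loss of single genes of this set causes Fanconi anaemia, ataxia telangiectasia, Bloom and Werner syndromes or a raised risk of breast and ovarian cancer, and tumours that have lost recombination are sensitive to platinum drugs and to inhibitors of PARP.

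Counts over genes summed to 21093055 in the LINC00472 library, where 18238 genes had at least 1, and to 54823706 in the empty-vector library, where 18910 did. LINC00472 itself had 5655 counts in the library labelled as overexpressing it, against 2563 in the empty-vector library, a ratio of 4.69-fold after scaling. Of the markers of lung epithelium, the keratins KRT8 and KRT18 were listed at 26.5 and 23.9 FPKM in the LINC00472 library, against 94.2 and 157 FPKM in the empty-vector library (fragments per kilobase of transcript, relative to library size). KRT8 and KRT18 were called lower, as was KRT7, with 12.0 FPKM with LINC00472 and 37.1 with empty vector. KRT19 had 0 counts with LINC00472 and 44 with empty vector. EPCAM was low in both, at 1.18 FPKM in the LINC00472 library and 1.19 FPKM in the empty-vector library. The lung transcription factor NKX2-1 had 0 counts in both. NAPSA, a marker of lung adenocarcinoma, was called higher, with 2.40 FPKM with LINC00472 and 0.742 with empty vector, and the adhesion gene CDH1 had 2.10 FPKM with LINC00472 and 1.34 with empty vector. Among markers of other cell types, CD3E and KDR had 0 counts in both libraries, and PTPRC had 0 counts with LINC00472 and 32 with empty vector. LYZ had 0 counts with LINC00472 and 49 with empty vector. CD68, a macrophage marker that other cells also express, had 9.98 FPKM with LINC00472 and 14.2 with empty vector. The endothelial marker VWF had 35 counts with LINC00472 and 48 with empty vector. Of the fibroblast markers, COL1A1 had 237 counts with LINC00472 and 458 with empty vector. In that order LUM had 40 and 169 counts, PDGFRB 16 and 60, and DCN 0 and 28. COL1A2, with 15 counts with LINC00472 and 68 with empty vector, was called lower.

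The 32 genes did not move as a block. Ratios are of LINC00472 over empty vector on counts scaled with trimmed mean of M-values (TMM) factors, and a gene is called higher or lower where the log2 ratio was at least 1 or at most -1 and its 95% counting interval excluded 0. By that rule 5 members were higher in the LINC00472 library (ATM, FANCL, RAD51B, RAD52 and WRN), 3 were lower (FANCF, RAD51C and RBBP8) and 24 were not called. Over all genes at the minimum 16.3% were higher and 23.8% were lower, so the members' 15.6% higher lay close to the background and their 9.38% lower lay under it. Among protein-coding genes alone the background was 11.4% higher and 26.2% lower.

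The median log2 ratio of the members was 0.34, beside -0.19 over all genes and -0.31 over protein-coding genes. Ratios of single members ran over a wide range, with RAD51C the lowest at -1.30 and RAD51B the highest at 2.62. For 19 members the ratio was above 0, for 13 it was below 0, and 22 lay above the median of all genes. The counting interval lay above 0 for 18 members and below 0 for 11. Such a count says little at this depth, since the interval excluded 0 for 88.2% of all genes at the minimum.

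The members took a larger share of the reads in the LINC00472 library. They held 88201 counts there, or 0.418% of the library (95% Clopper-Pearson interval 0.415 to 0.421%), against 132650 counts or 0.242% of the empty-vector library (0.241 to 0.243%). The damage kinases ATM and ATR with ATRIP made up the largest part of that difference, with 0.132% of the LINC00472 library and 0.0530% of the empty-vector library. Each of the 7 groups by role took a larger share in the LINC00472 library. In percentage points the difference was smallest for the helicases and SLX4, at 0.0203% there and 0.0114% in the empty-vector library. That group also had the smallest share in both. Relative to its share the break-sensing and resection group differed less, at 0.0630% with LINC00472 and 0.0495% with empty vector. Shares of the library total follow total counts, under which every ratio is higher than with TMM factors. With TMM the median log2 ratio was below 0 for the BRCA1-PALB2-BRCA2 genes (-0.04) and the recombination mediators (-0.25). It was above 0 for the other groups.

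**Figure D1:**
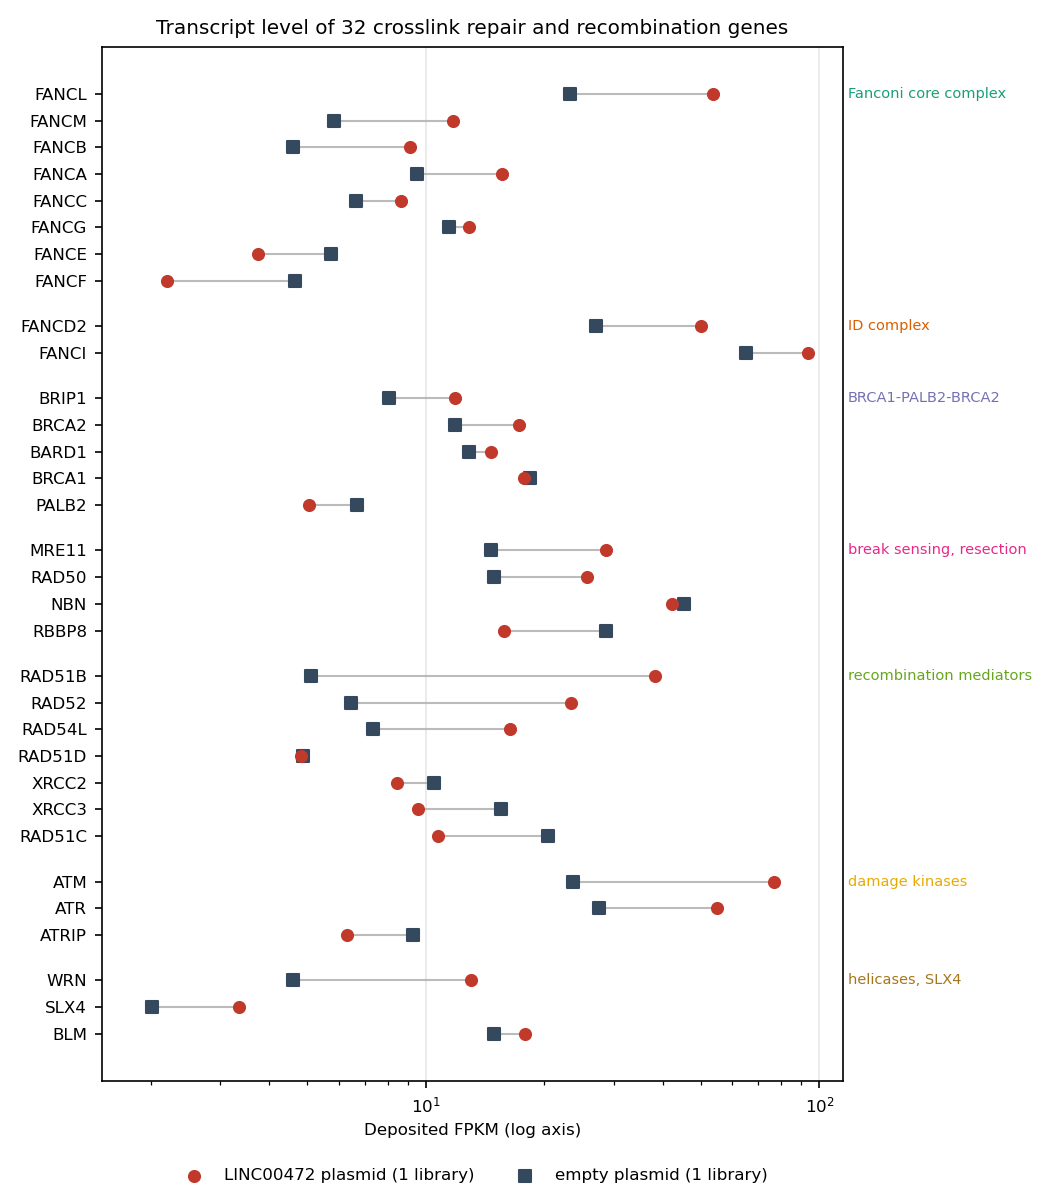
Deposited FPKM of the 32 genes on a log axis, grouped by role, with a circle for the LINC00472 library and a square for the empty-vector library. FPKM was higher in the LINC00472 library for 21 genes and lower for 11, and the longest line belongs to RAD51B, at 38.3 FPKM in the LINC00472 library and 5.10 in the empty-vector library.

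On the FPKM scale FANCI was the most abundant member in both libraries, at 93.6 FPKM in the LINC00472 library and 65.2 FPKM in the empty-vector library. Below it the order changed. ATM ranked 2 among the 32 in the LINC00472 library and 6 in the empty-vector library, RAD51B ranked 7 with LINC00472 and 27 with empty vector, and RBBP8 ranked 15 with LINC00472 and 3 with empty vector. Spearman's correlation of the members' FPKM between the libraries was 0.69 over 32 genes, which share the same pair of libraries. The least abundant member was FANCF in the LINC00472 library, at 2.20 FPKM, and SLX4 in the empty-vector library, at 2.02 FPKM.

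Among the damage kinases, ATM was higher with LINC00472 and its relative ATR fell short of the 2-fold rule. ATM, the kinase that MRE11-RAD50-NBN activates at DNA breaks, had 16850 counts in the LINC00472 library and 14762 with empty vector. In deposited FPKM that was 76.8 with LINC00472, against 23.7 with empty vector. The LINC00472 library was the higher one on both scales although it was the shallower, and the ratio was 2.43-fold (log2 1.28, 95% interval 1.25 to 1.31). ATR, which acts at stalled forks, had 10680 counts with LINC00472 and 12924 with empty vector, or 55.1 FPKM with LINC00472 and 27.5 with empty vector, and a log2 ratio of 0.81 (0.78 to 0.85). ATRIP, the subunit that brings ATR to single-stranded DNA coated with RPA, was on the other side of 0. It had 386 counts with LINC00472 and 1370 with empty vector, or 6.32 FPKM with LINC00472 and 9.26 with empty vector, with a log2 ratio of -0.74 (-0.90 to -0.57), and was not called.

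The 8 members of the core complex held 1 higher and 1 lower gene. FANCL, the RING subunit that carries the ligase activity, had 2172 counts in the LINC00472 library and 2285 with empty vector. It was listed at 53.6 FPKM with LINC00472 and 23.3 FPKM with empty vector, the highest level of the core genes in both, and its ratio was 2.02-fold (log2 1.02, 0.93 to 1.10), just inside the rule. FANCF, the adaptor on which the subcomplexes of the core meet and whose gene has no intron, had 171 counts with LINC00472 and 874 with empty vector. Its FPKM was 2.20 with LINC00472 and 4.64 with empty vector, and it was 2.40-fold lower (log2 -1.26, -1.51 to -1.03).

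The other 6 core genes were not called and spread on both sides of 0. FANCM, the translocase that anchors the core to DNA, had a log2 ratio of 0.81, with 11.7 FPKM in the LINC00472 library and 5.84 in the empty-vector library. FANCB, the X-linked partner of FANCL, had a log2 ratio of 0.79, with 9.09 FPKM with LINC00472 and 4.60 with empty vector. FANCA, the gene most often mutated in Fanconi anaemia, had a log2 ratio of 0.56, with 15.6 FPKM with LINC00472 and 9.48 with empty vector. These 3 genes sit in different modules of the complex. FANCC had a log2 ratio of 0.11 and FANCG, which binds FANCA, one of -0.02, and both intervals included 0. FANCE, which connects the core to FANCD2, had 3.74 FPKM with LINC00472 and 5.75 with empty vector, a log2 ratio of -0.80 (-1.02 to -0.59).

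FANCD2 and FANCI, the clamp that the core complex ubiquitinates, both had ratios above 0 without reaching the rule. FANCD2 had 6074 counts in the LINC00472 library and 7968 with empty vector, or 49.9 FPKM with LINC00472 and 27.1 with empty vector, with a log2 ratio of 0.70 (0.65 to 0.75). FANCI had 10412 counts with LINC00472 and 17595 with empty vector, with a log2 ratio of 0.33 (0.30 to 0.37). Copies of FANCD2 exist as pseudogenes, and how the authors' counting divided reads between such copies is not given in the sources used here.

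None of the 5 genes of the BRCA1-PALB2-BRCA2 axis was called. BRCA1, the ubiquitin ligase that promotes resection and recruits PALB2, had 2627 counts in the LINC00472 library and 6119 with empty vector, or 17.8 FPKM with LINC00472 and 18.4 with empty vector. Its obligate partner BARD1 had 1816 counts with LINC00472 and 3976 with empty vector, or 14.6 FPKM with LINC00472 and 12.9 with empty vector. Both lay near equality after scaling, with log2 ratios of -0.13 (-0.20 to -0.06) for BRCA1 and -0.04 (-0.12 to 0.04) for BARD1. BRCA2, a mediator of recombination, had 17.2 FPKM with LINC00472 and 11.9 with empty vector, a log2 ratio of 0.35 (0.30 to 0.40). BRIP1, the helicase that binds the BRCT repeats of BRCA1, had 11.8 FPKM with LINC00472 and 8.06 with empty vector, a log2 ratio of 0.37 (0.29 to 0.44). PALB2, the bridge between BRCA1 and BRCA2, was the lowest of the 5 with 481 counts with LINC00472 and 1539 with empty vector, and a log2 ratio of -0.59 (-0.74 to -0.44).

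In the break-sensing and resection group RBBP8 was lower and the subunits of the MRE11-RAD50-NBN complex were not called. RBBP8, which switches on the nuclease of MRE11, had 1209 counts in the LINC00472 library and 5326 with empty vector, or 15.8 FPKM with LINC00472 and 28.7 with empty vector. It was 2.07-fold lower (log2 -1.05, -1.14 to -0.96), just past the rule. The nuclease gene MRE11 had 28.6 FPKM with LINC00472 and 14.6 with empty vector, a log2 ratio of 0.78 (0.72 to 0.85), and RAD50, the coiled-coil ATPase, had 25.7 FPKM with LINC00472 and 14.9 with empty vector, a log2 ratio of 0.60 (0.54 to 0.66). NBN, which recruits ATM, was on the other side with 4603 counts with LINC00472 and 11907 with empty vector, and a log2 ratio of -0.28 (-0.33 to -0.23).

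The genes of recombination mediators held the widest spread of any role, with 2 higher, 1 lower and 4 not called. RAD51B, of the BCDX2 complex (RAD51B, RAD51C, RAD51D and XRCC2), had 1764 counts in the LINC00472 library and 608 with empty vector. At 38.3 FPKM with LINC00472 and 5.10 with empty vector it was 6.17-fold higher (log2 2.62, 2.49 to 2.76), and 1.48% of all genes at the minimum had a ratio as high. Its partner RAD51C, which is present in both the BCDX2 and the CX3 complex, had 252 counts with LINC00472 and 1318 with empty vector, or 10.7 FPKM with LINC00472 and 20.4 with empty vector. It was 2.46-fold lower (log2 -1.30, -1.50 to -1.10), so the 2 genes were called in opposite directions.

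RAD52, which anneals DNA strands coated with RPA, had 1549 counts in the LINC00472 library and 998 with empty vector. It was listed at 23.3 FPKM with LINC00472 and 6.46 with empty vector and was 3.30-fold higher (log2 1.72, 1.61 to 1.84). RAD54L, a DNA motor that promotes invasion of the sister duplex, was the member just outside the rule on the higher side. It had 16.4 FPKM with LINC00472 and 7.34 with empty vector, a log2 ratio of 0.97 (0.86 to 1.08). XRCC3, the partner of RAD51C in the CX3 complex, was the one just outside on the lower side. It had 574 counts with LINC00472 and 2282 with empty vector, or 9.56 FPKM with LINC00472 and 15.6 with empty vector, a log2 ratio of -0.90 (-1.04 to -0.77). XRCC2 had a log2 ratio of -0.50 (-0.64 to -0.37) and RAD51D one of -0.25 (-0.46 to -0.03).

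Of the helicases and the SLX4 scaffold, WRN was higher. This RecQ helicase, which also carries an exonuclease and is lost in Werner syndrome, had 1762 counts in the LINC00472 library and 1504 with empty vector, or 13.0 FPKM with LINC00472 and 4.60 with empty vector. Its ratio was 2.49-fold (log2 1.32, 1.22 to 1.42). BLM, the RecQ helicase that dissolves double Holliday junctions, had 17.8 FPKM with LINC00472 and 14.9 with empty vector, and its log2 ratio of 0.08 lay close to equality (0.00 to 0.16). SLX4, the scaffold that gathers the unhooking nucleases, had 3.36 FPKM with LINC00472 and 2.02 with empty vector, a log2 ratio of 0.55 (0.39 to 0.70).

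**Figure D2:**
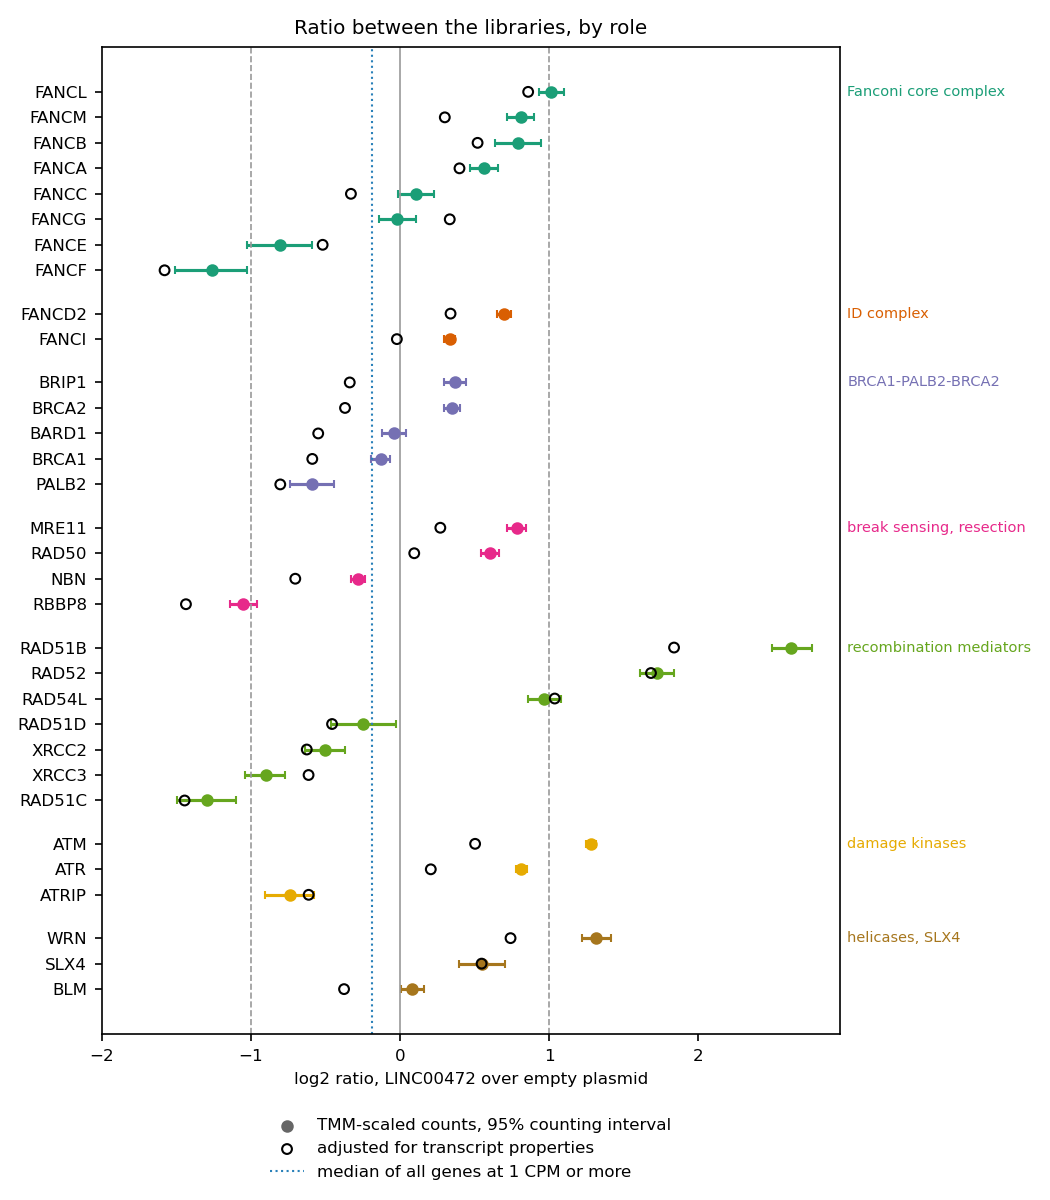
The log2 ratio of each gene, LINC00472 over empty vector, by role. Filled points are TMM-scaled counts with 95% counting intervals, open points are ratios adjusted for intron length, transcript length and GC content, dashed lines mark the 2-fold rule and the dotted line the median of all genes at the minimum (-0.19). RAD51B lies farthest right at 2.62, and RAD51C and FANCF lie farthest left at -1.30 and -1.26.

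Most of the examined pairs of genes whose products work as partners differed by less than 2-fold. The difference between the log2 ratios of 2 genes does not depend on the scaling of the libraries, and 16 pairs of members of the same complex or direct contact were compared, chosen after the values were seen. The interval of the difference excluded 0 for 15 pairs, which says little at a depth where 88.2% of single genes have an interval excluding 0. By size, 3 pairs differed at least 2-fold. Once the ratios were adjusted for transcript properties 2 did, RAD51B minus RAD51C and FANCF minus FANCE, and only the first of these was among the 3. How often other pairs of genes differ as much was not examined. RAD51B minus RAD51C was the largest at 3.92 on the log2 scale (3.69 to 4.16). The FPKM of RAD51B was 3.56 times that of RAD51C in the LINC00472 library and 0.250 times in the empty-vector library. After adjustment the difference was 3.28. RAD51C was also the low member of RAD51D minus RAD51C, at 1.05 (0.76 to 1.34) and 0.99 after adjustment. The adjustment used the longest matched transcript of each gene, 9988 bases for RAD51D, and whether that form is the one expressed here was not examined. ATRIP minus ATR was -1.55 (-1.72 to -1.39), with the FPKM of ATRIP at 0.115 times that of ATR with LINC00472 and 0.336 times with empty vector, and the adjusted difference was -0.82.

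Other pairs stayed closer. BRCA1 minus BARD1 was -0.09 and its interval of -0.19 to 0.01 included 0, which bounds the difference without showing that the 2 genes moved alike. FANCD2 minus FANCI was 0.37 and MRE11 minus RAD50 was 0.18. In the same MRE11-RAD50-NBN complex, NBN minus RAD50 was -0.88 (-0.96 to -0.81). PALB2 minus BRCA2 was -0.94 (-1.10 to -0.78) and -0.43 after adjustment. FANCC minus FANCE, a direct contact within the core, was 0.91 (0.67 to 1.16) and 0.19 after adjustment. FANCF minus FANCE was -0.46 (-0.78 to -0.14) and reached the 2-fold size after adjustment, at -1.06.

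**Figure D3:**
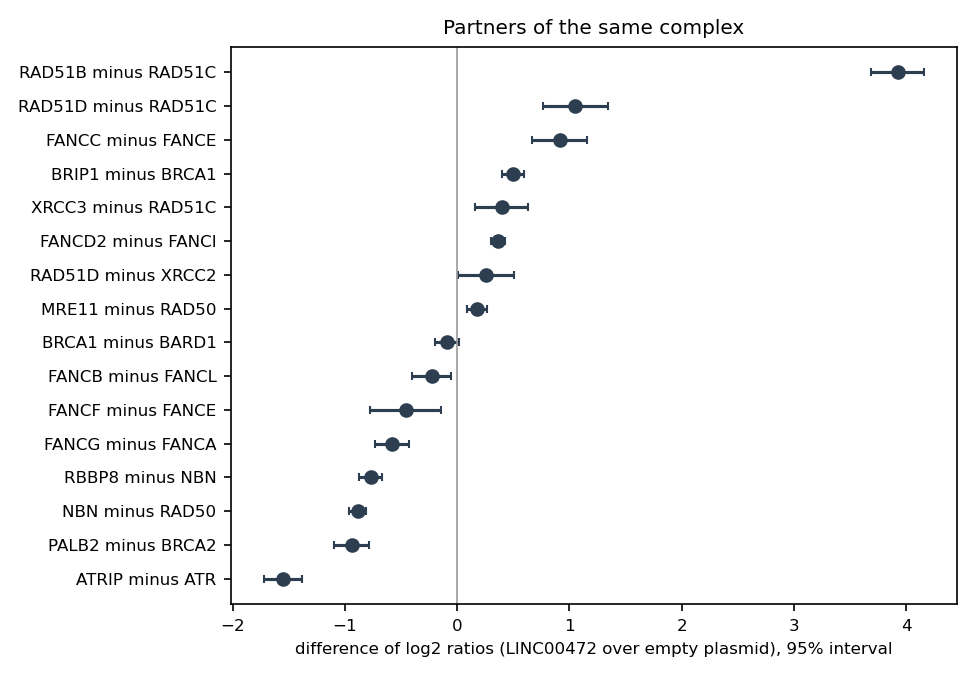
Difference between the log2 ratios of 2 partner genes (first minus second; each ratio is LINC00472 over empty vector), with 95% Wald intervals that cover counting error. Of the 16 pairs only BRCA1 minus BARD1 has an interval that crosses 0, and RAD51B minus RAD51C stands at 3.92.

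The ratios of the members moved with the summed intron length of the genes, and less with transcript length. Over the 32 members Spearman's correlation of the log2 ratio was 0.49 with summed intron length, 0.24 with transcript length, -0.27 with GC content and 0.40 with mean CPM. Over 12379 protein-coding genes at the minimum it was 0.32, 0.38, -0.21 and -0.14 in that order, so the sign for mean CPM differed between the sets. The genes of either set share the same pair of libraries and are not replicates. The members are long genes, with a median summed intron length of 68224 bases beside 23879 for protein-coding genes, and a median transcript of 4704.5 bases beside 3294.

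When protein-coding genes were divided into 3 equal groups by intron length, at 12257 and 43225 bases, 3 members fell among the shortest, 10 in the middle and 19 among the longest. The median log2 ratio of the members was -0.80 among the shortest, -0.37 in the middle and 0.56 among the longest. For the other protein-coding genes it was -0.75, -0.40 and 0.08. FANCF, with no intron, was called lower, and RAD51B, with 773593 bases of intron, was called higher. RBBP8, with 89370 bases of intron and a log2 ratio of -1.05, was the member of the longest group that was called lower.

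**Figure D4:**
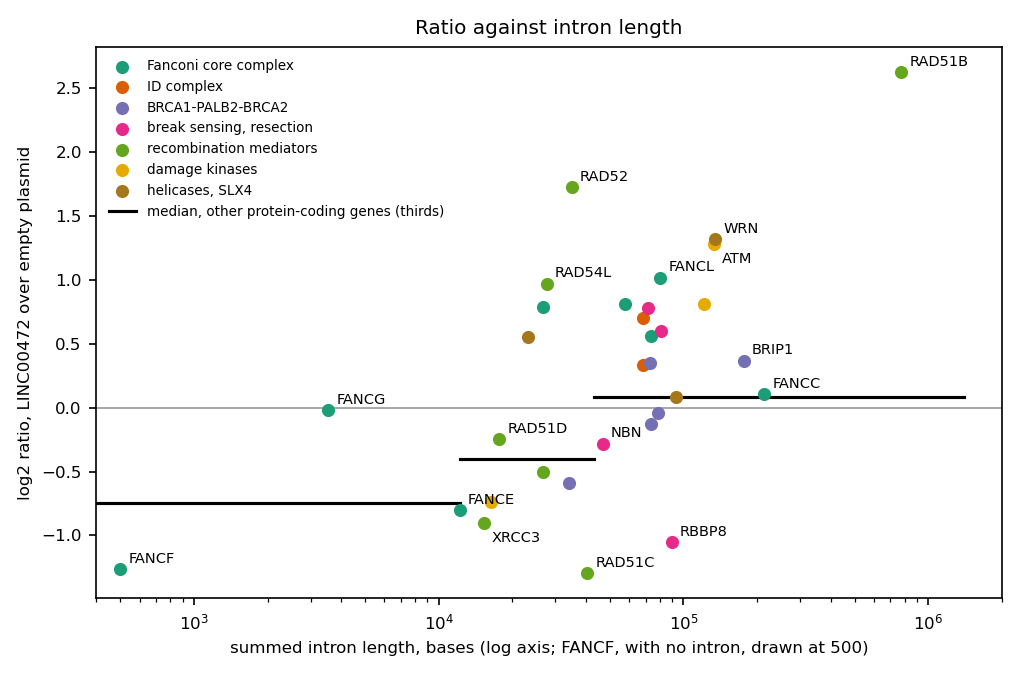
The log2 ratio of each member, LINC00472 over empty vector, against summed intron length in bases on a log axis, coloured by role. Black lines give the median of the other protein-coding genes in 3 equal groups by intron length (-0.75, -0.40 and 0.08). RAD51B lies at the top right, FANCF at the lower left, and RAD51C and RBBP8 lie below the lines of their groups.

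After the ratios were adjusted for intron length, transcript length and GC content over 13621 genes, RAD51B, RAD52 and RAD54L were higher and FANCF, RAD51C and RBBP8 were lower, beside a background of 12.9% higher and 23.8% lower. The median of the members was then -0.17, beside -0.32 over all genes. RAD51B had an adjusted log2 ratio of 1.84, RAD52 of 1.68 and RAD54L of 1.04. ATM (0.50), WRN (0.74) and FANCL (0.86) no longer reached the rule. The 3 lower genes stood at -1.58 for FANCF, -1.44 for RAD51C and -1.44 for RBBP8. What part RNA quality or library preparation had in the relation with length was not tested.

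The balance between higher and lower calls depended on how the libraries were scaled. With total counts in place of TMM factors, 10 members were higher and 1 was lower (background 22.5% and 16.3%), the additional higher genes being ATR, FANCB, FANCM, MRE11 and RAD54L. Upper quartile factors gave 11 higher and 0 lower (background 25.1% and 14.2%), and so did ratios centred on the median of protein-coding genes (background 22.8% and 15.9%). A 2-fold rule on the deposited FPKM with 0.5 added gave 6 higher and 0 lower (background 15.5% and 17.3%). TMM put 40.6% of all calls on the higher side, where the median of all genes was -0.19. That share was 57.9% under scaling to total counts (median 0.11) and 63.9% under upper quartile factors (median 0.21).

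Across TMM and the 10 alternatives the log2 ratio was above 0 throughout for 14 members and below 0 throughout for 8. The 8 were ATRIP, FANCE, FANCF, PALB2, RAD51C, RBBP8, XRCC2 and XRCC3. For the other 10, among them BRCA1, BRCA2, BARD1, BLM, NBN and FANCI, the side of 0 depended on the setting. RAD51B, between 1.84 and 3.01 over the alternatives, and RAD52, between 1.57 and 2.11, were called higher under TMM and all 10 alternatives, and no other member was called under all of them.

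Sequence upstream of the start was examined for 4 motifs of cell-cycle and housekeeping promoters. Windows from 250 bases before to 50 after each gene's start were available from RefSeq (GRCh38.p14) for 29 members and 27305 genes in all. Both strands were searched. Where several starts were listed for a gene, only the most upstream was used. ATM and RAD51B are shown as called higher and FANCF and RAD51C as called lower, each as the 120 bases before the start, 5′ to 3′ on the strand of the gene, with motif letters in capitals. The ATM stretch lies on the plus strand at chr11:108222947-108223066, FANCF on the minus strand at chr11:22625824-22625943, RAD51B on the plus strand at chr14:67823421-67823540 and RAD51C on the plus strand at chr17:58692453-58692572.
ATM: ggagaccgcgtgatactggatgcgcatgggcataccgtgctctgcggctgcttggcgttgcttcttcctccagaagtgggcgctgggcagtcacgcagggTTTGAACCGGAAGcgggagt
RAD51B: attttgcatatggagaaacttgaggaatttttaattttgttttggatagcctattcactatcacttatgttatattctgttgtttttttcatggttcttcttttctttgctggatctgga
FANCF: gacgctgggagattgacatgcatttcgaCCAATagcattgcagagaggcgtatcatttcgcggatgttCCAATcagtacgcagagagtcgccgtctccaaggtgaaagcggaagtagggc
RAD51C: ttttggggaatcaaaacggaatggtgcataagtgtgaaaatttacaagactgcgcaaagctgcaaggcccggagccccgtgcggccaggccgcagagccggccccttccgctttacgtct

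In ATM the capitals are the cell-cycle homology element TTTGAA directly followed by the ETS motif CCGGAAG, and in FANCF they are 2 copies of CCAAT. Neither RAD51B nor RAD51C held any of the searched letters in its window. The RAD51B stretch, taken at the most upstream start listed, was 30.0% G and C where that of ATM was 62.5%. Whether these starts are the ones used in these cells was not examined. CCGGAAG was present in the windows of 10 of the 29 members (34.5%), beside 10.6% of all windows. An E2F motif (TTTCCCGC, TTTGGCGC, TTTCGCGC or TTTGCCGC) was present in 4 members (13.8%), FANCA, FANCC, FANCD2 and XRCC2, beside 3.34% of all windows. CCAAT was in 37.9% of member windows and 35.7% of all, and TTTGAA in 10.3% and 15.5%. None of the 4 genes with an E2F motif was called, which says little because 24 of all 32 members were not called. These are matches of letters and not measured binding. The comparison set of all windows was not limited to protein-coding genes or to genes at the minimum, whereas all members are both. The shares among such genes alone were not examined.

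The wider pathway was described with 10 further lists, 9 of repair genes and 1 of cell-cycle regulators, to be read against the 16.3% higher and 23.8% lower of all genes. Of 20 other genes of crosslink repair 1 was higher (5%) and 8 were lower (40%), with a median log2 ratio of -0.67. The higher one was EME1, a partner of the MUS81 nuclease, with 1848 counts in the LINC00472 library, 1210 in the empty-vector library and a log2 ratio of 1.70. UBE2T, the conjugating enzyme that supplies ubiquitin to FANCL, had 471 counts with LINC00472 and 2753 with empty vector, a log2 ratio of -1.46, and was lower while FANCL was higher. USP1, which removes that ubiquitin again, was lower at -1.31. CENPS (-2.30) and CENPX (-1.64), the histone-fold partners of FANCM, were lower, as was the nuclease DCLRE1B (-1.64).

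Among 35 other genes of homologous recombination 4 were higher (11.4%) and 8 were lower (22.9%), with a median of -0.42, so the lower share was near that of all genes. Upper quartile factors or centring gave 3 lower calls, and total counts gave 4. The lower ones with the largest ratios were NABP2 (-2.36), a single-stranded DNA binding protein, and RPA2 (-1.74), of the RPA complex that ATRIP binds, followed by SWI5 (-1.52), a recombination cofactor, and RPA3 (-1.30). Of 25 genes of damage signalling 0 were higher and 5 were lower (20%), with a median of 0.08. H2AFX, the histone variant that ATM phosphorylates at breaks, had 234 counts with LINC00472 and 4371 with empty vector and a log2 ratio of -3.13. TIPIN (-2.27), BABAM1 (-1.60) and CLSPN (-1.44), the adaptor through which ATR activates CHEK1, were also lower. The kinases downstream were not called, with CHEK1 at -0.81 and CHEK2 at 0.34, and TP53BP1, which opposes resection, stood at 0.28.

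Among other repair routes, base excision had 0 higher and 9 lower of 18 (50% lower), with a median of -0.98, led by the uracil glycosylase UNG (-2.62). Its genes are also short, with a median summed intron length of 11566 bases, and 1 was higher and 7 were lower with adjusted ratios. Nucleotide excision had 1 higher and 5 lower of 18 (27.8%), led by CETN2 (-1.91), and end joining 1 higher and 3 lower of 13 (23.1%), among them the Ku subunits XRCC6 (-1.72) and XRCC5 (-1.42). Mismatch repair had 1 higher, MLH3 (1.46), and 2 lower of 7 (28.6%), and 0 lower with total counts, upper quartile factors or centring. Translesion synthesis had 2 higher, POLI (1.46) and SHPRH (1.04), and 1 lower, MAD2L2 (-1.85), of 11. The SMC5/6 and cohesin genes had 0 higher and 3 lower of 19 (15.8%), and 2 of each with those 3 scalings. The E2F and DREAM regulators, which control many repair genes in S phase, had 1 higher, RBL2 (1.07), and 5 lower of 19 (26.3%), among them MYBL2 (-1.85) and E2F1 (-1.38). PCNA, the sliding clamp of replication, was lower at -1.98. The median log2 ratio of the members (0.34) exceeded that of 9 of these 10 lists, and only that of translesion synthesis (0.39) was higher. With adjusted ratios the members' median of -0.17 lay below those of end joining (0.06), translesion synthesis (-0.06) and nucleotide excision (-0.16), and no test of the difference between lists was made.

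**Figure D5:**
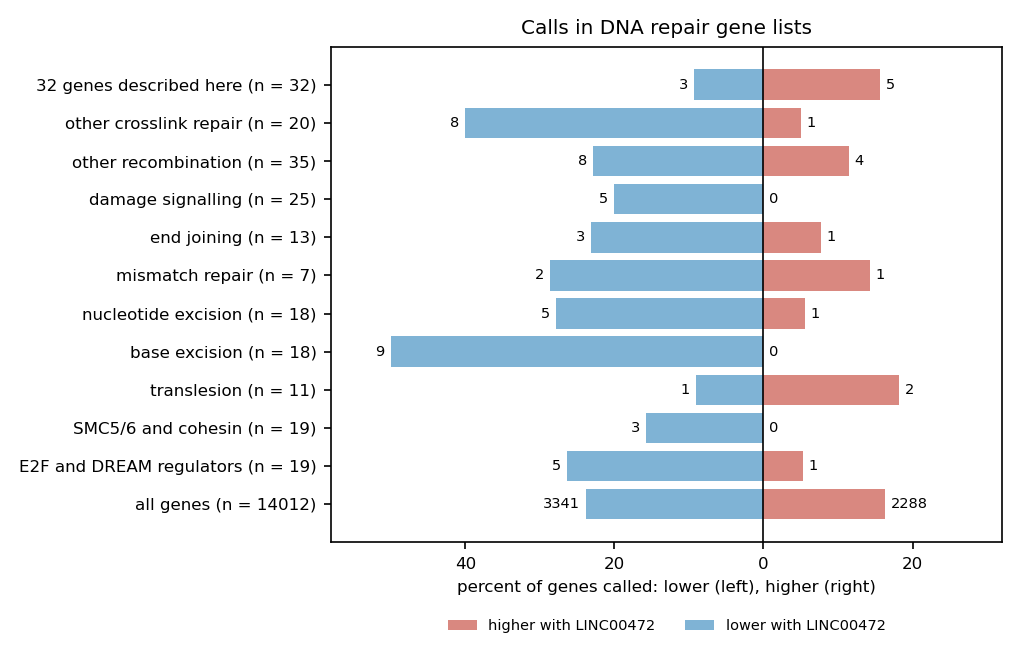
Percent of the genes of each list called higher (red, to the right) or lower (blue, to the left) in the LINC00472 library relative to the empty-vector library, with the number of genes beside each bar. The 32 genes have 5 higher and 3 lower, base excision has 0 and 9, and all 14012 genes at the minimum have 2288 and 3341.

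Some counts can include reads of a neighbouring gene, because whether the counting used strand is not given in the sources used here. Positions were taken from GENCODE 29, and only neighbours also named among the deposited genes were counted. Of the 32 members 15 overlap such a gene, 4 of them on the same strand. For 17 members such a gene starts head to head within 1000 bases. Overlap with other annotated genes was not counted. NPAT, which shares a promoter region with ATM and overlaps it on the opposite strand, had a log2 ratio of 0.46 and was not called. VRK2, which overlaps FANCL, stood at 0.01, and ERC1, head to head with RAD52, at 0.12. For these 3 pairs the neighbour lay below the ratio of the called member. Of 11 head-to-head pairs with the neighbour at the minimum, 9 had both TMM ratios on the same side of 0, such as XRCC3 (-0.90) and ZFYVE21 (-0.84). The pairs on opposite sides were FANCD2 with CIDECP and FANCM with FKBP3. The intervals of TEX14, beside RAD51C, and ANKRD49, beside MRE11, included 0. The side of 0 also depends on the scaling. BRCA1, head to head with NBR1 (-0.44 with TMM), stood at -0.13 with TMM and 0.16 with total counts. How often other pairs of genes share a side was not examined, so the count of 9 has no reference. ATRIP overlaps TREX1 on the same strand, and TREX1 was lower at -1.57, with 122 counts in the LINC00472 library and 774 with empty vector. LRRC41, which overlaps RAD54L on the opposite strand, was lower at -1.23 although RAD54L stood at 0.97.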

How the data were processed

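Total RNA of 2 cultures of NCI-H838 cells, 1 library per group, was sequenced, and the sample titles gave the groups. Each gene has a read count, a whole number that the authors deposited without normalization, and an FPKM value that they deposited beside it, in a table of both libraries and a table per library. Counts of all 27685 genes were identical between these tables. The submitters' processing notes list StringTie 1.3.4b, HISAT2 2.1.0, Trimmomatic and bcl2fastq 2.20.0, and hg19 as the build, with no role or order. The method of counting, and any use of strand in it, is not given in the sources used here. The annotation used here is of another build, so coordinates are given only for the printed RefSeq promoters.

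Counts were scaled with TMM factors (1.105 for LINC00472, 0.905 for empty vector) in edgeR 4.0.16 under R 4.3.3. Log2 ratios used a prior of 0.5 counts, in proportion to library size, with exact conditional (Clopper-Pearson) 95% intervals. A call needed a mean of at least 1 CPM, a 2-fold ratio and an interval excluding equality. With 21093055 and 54823706 counts, member intervals had a median of 0.10 on either side of the log2 ratio. These intervals hold counting error alone: reads are not independent molecules, and the variation between cultures is unknown.

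Adjusted ratios are residuals of splines (5 knots, degree 3) of GC content and of the log2 lengths of transcript and introns from GENCODE 29, fitted in scikit-learn 1.9.0 over 13621 genes (97.2% of those at the minimum, R squared 0.115), with the median added back. Protein length was not used. The procedure was tested on simulated counts. Members, gene lists and rules were chosen with earlier results of these data known. All 32 members are named, from each other list up to 4 called genes with the largest ratios, and CHEK1, CHEK2, TP53BP1 and PCNA. UBE2T, USP1 and RBL2 were chosen beyond this rule with values known. A few genes named by the rule are not reported here. The 16 partner pairs and the neighbouring genes were chosen after values were seen. The effect of 10 alternatives is given in the closing section. DESeq2 1.42.0 gave alternative size factors, and the remaining steps ran in Python 3.11.15 (scipy 1.17.1, pandas 2.3.3, numpy 2.4.6, matplotlib 3.10.9).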

Additional observations from a re-analysis of the deposited data

How the results depend on the processing

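Calls under DESeq2 size factors, a prior count of 5, no expression minimum and a minimum of 5 CPM were those of the TMM scaling for all 32 members, and thinning the empty-vector library to equal depth added RAD54L (log2 ratio 1.002). Total counts gave 10 higher and 1 lower members with a median log2 ratio of 0.63, upper quartile factors gave 11, 0 and 0.73, centring on protein-coding genes gave 11, 0 and 0.65, and FPKM with 0.5 added gave 0 lower and a median of 0.52. These scalings shift every ratio by construction (FPKM apart, where the cause was not tested). FANCF stood at -0.97 with total counts and RBBP8 at -0.76, and RAD51C at -0.91 with upper quartile factors. Adjusting for transcript properties left 3 members higher and moved the median to -0.17. The members' share of counts was 0.534% with LINC00472 and 0.298% with empty vector without the 100 most abundant genes of both libraries, and 0.470% and 0.255% over protein-coding genes. No member that was called turned its direction under any alternative.

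Counts in other lists that moved by over 1.5 times were as follows. Lower calls of other recombination genes were 4 with total counts, 3 with upper quartile factors or centring and 5 with FPKM. Lower calls of mismatch repair were 0 with these 4 settings, and of nucleotide excision 3 with the first 3 of them. With those 3 scalings, higher calls were 2 for nucleotide excision, 1 for base excision, 4 for translesion synthesis, 2 for SMC5/6 and cohesin (2 with FPKM and 1 with thinning), and 1 (2 with upper quartile factors) for damage signalling. Upper quartile factors also gave 2 higher for other crosslink repair and for end joining (0 with FPKM), and 2 lower E2F and DREAM regulators. Adjusting gave higher counts of 2 for other crosslink repair, 1 each for damage signalling, base excision and translesion synthesis, and 0 for other recombination, end joining, nucleotide excision and E2F and DREAM regulators. It gave lower counts of 9 for damage signalling, 6 for SMC5/6 and cohesin and 8 for E2F and DREAM regulators. No paired analysis was possible because each group holds 1 library, and for the same reason no replicate could be left out.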

Other observations

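Several loci named after members or transcribed beside them were read separately in the table, and they were chosen after their values were seen. RAD51L3-RFFL, the readthrough locus of RAD51D and RFFL, had 360 counts in the LINC00472 library and 267 with empty vector and was higher (log2 ratio 1.52, 95% counting interval 1.29 to 1.75). RFFL, the ubiquitin ligase gene downstream of RAD51D, had 467 counts with LINC00472 and 2160 with empty vector and was lower at -1.12, while RAD51D stood at -0.25. These loci share sequence, so their counts are uncertain.

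NBR2, the noncoding neighbour of BRCA1, had 164 counts with LINC00472 and 160 with empty vector, a log2 ratio of 1.12, where BRCA1 was at -0.13. Without a known strand setting such a pair cannot be fully separated. FANCD2OS, which overlaps FANCD2, had 0 counts in both libraries.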
